A study of Mus musculus with 17 samples.

Results

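The genes described here are 4 genes of inhibitory transmission by gamma-aminobutyric acid (GABA): Gabra2, Gad1, Gad2 and Slc32a1. All probe sets that the platform annotation assigns to these symbols were taken, which gave 6 of the 22690 probe sets on the array: 1 for Gabra2, 2 for Gad1, 1 for Gad2 and 2 for Slc32a1. Gabra2 was chosen by its measured difference between ob/ob and control in earlier results of these data, so the values of ob/ob mice are given as a description with no test, and the synthesis and packaging genes were set beside it by function. The arrays hold RNA from single hypothalami of 17 male mice aged 9 weeks, all labelled C57Bl/6 with no substrain or supplier named. The mice fell into 3 groups by genotype and treatment. The ob/ob group holds 5 mice with the ob/ob genotype, which lack functional leptin; the labels name no injection for them. The STZ group holds 6 wild-type mice given 200 µg of streptozotocin per g body weight in a single intraperitoneal dose, a toxin that destroys insulin-producing beta cells. The control group holds 6 wild-type mice injected with vehicle. The labels do not give the interval between injection and dissection, glucose, insulin or body weight.

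GABA is the main inhibitory transmitter of the adult brain, and many neurons of the hypothalamic nuclei that govern feeding release it. Gad1 and Gad2 encode the glutamate decarboxylases that make GABA from glutamate, and Slc32a1 encodes the transporter that loads GABA and glycine into synaptic vesicles. These 3 genes act in the cell that sends the signal. Gabra2 encodes an alpha subunit of the GABA-A receptor, the chloride channel that opens when GABA binds, and so acts in the cell that receives it. GABA-A receptors are assembled as pentamers from alpha, beta, gamma and other subunits, and the alpha subunit takes part in forming the binding site for benzodiazepines.

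The promoters of Gabra2 and Gad2 are shown because the signals of these 2 genes varied together between mice, as described further on. All 4 genes matched an entry among the RefSeq promoters of assembly GRCm38.p6, each 300 bases long and spanning the annotated start. Capitals mark matches, on either strand, to the Sp1 box GGGCGG, the CCAAT box CCAAT, the TATA box TATAAA and the letters CCTCCT. The last of these was chosen after the Gabra2 promoter had been read. The Gabra2 promoter lies at chr5:71095800-71096099 on the minus strand and the Gad2 promoter at chr2:22622077-22622376 on the plus strand.
Gabra2: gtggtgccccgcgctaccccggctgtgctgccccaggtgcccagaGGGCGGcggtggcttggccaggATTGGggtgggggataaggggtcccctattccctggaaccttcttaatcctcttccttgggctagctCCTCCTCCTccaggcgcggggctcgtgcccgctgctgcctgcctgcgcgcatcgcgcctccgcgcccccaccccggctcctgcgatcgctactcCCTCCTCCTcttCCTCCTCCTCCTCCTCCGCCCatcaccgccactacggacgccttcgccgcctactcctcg
Gad2: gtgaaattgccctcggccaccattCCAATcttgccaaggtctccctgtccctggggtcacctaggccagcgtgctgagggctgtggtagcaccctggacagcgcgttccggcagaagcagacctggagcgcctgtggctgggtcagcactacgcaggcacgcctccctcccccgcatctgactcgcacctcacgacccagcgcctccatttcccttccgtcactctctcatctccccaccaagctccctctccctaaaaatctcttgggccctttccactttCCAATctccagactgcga
The Gabra2 window had 70% G and C and 25 CG pairs, and the Gad2 window had 61.3% and 14 CG pairs, beside medians of 52.7% and 7 over all 32851 promoters in the table. The Gabra2 window held 2 matches to GGGCGG, 1 to CCAAT and 8 to CCTCCT, counting matches that overlap each other, and the second GGGCGG match, read on the opposite strand as CCGCCC, directly followed the last CCTCCT. The Gad2 window held 2 matches to CCAAT and none to the other 3 strings. Over all promoters, 35.7% held GGGCGG, 37.4% CCAAT, 13.6% TATAAA and 35.3% CCTCCT. The CCAAT box was thus the only one of these strings found in both windows. The Gad1 window had 60% G and C with 21 CG pairs, and the Slc32a1 window had 63.3% with 17. The Gad1 window held 1 match to GGGCGG, 1 to TATAAA and 1 to CCTCCT, and the Slc32a1 window held 2 to CCTCCT. The Gabra2 window thus also had strings in common with Gad1 and Slc32a1. Whether any string bears on how the signals varied was not tested. The cyclic AMP response element TGACGTCA, the E-box CACGTG, the STAT string TTCNNNGAA and the glucocorticoid receptor string AGAACA were also searched on both strands and had no match in any of the 4 windows; 1.79%, 7.15%, 8.3% and 19% of all promoters held them.

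At the level of the whole series, the signals of all arrays had been brought to the same 2% trimmed mean, 1500.4, and array medians lay between 637.6 and 707.05. Tissue identity was checked with 14 markers of the hypothalamus, of which 11 had a probe set with a single gene symbol and 8 were bright enough to be tested. The neuropeptide genes Avp, Oxt and Hcrt, which are made by hypothalamic neurons, averaged 13324, 10908 and 6639 signal units over all arrays, and the transcription factor genes Otp, Nkx2-1 and Rax were under the brightness filter. A probe set was tested if its geometric mean signal over all arrays reached the 40th percentile, a signal of 435, which kept 13576 probe sets. Of the 6 member probe sets 5 were tested. The dimmer Slc32a1 probe set, 1456457_at, was not, with medians of 35.2 in ob/ob, 70.05 in STZ and 34.3 in control. Its signals ran from 7.2 to 129.5 over all arrays and the groups overlapped throughout. Signals of different probe sets depend on their own probes, so no member's level is set against another's.

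Gabra2 was lower in ob/ob hypothalamus than in either other group. The Gabra2 signal (1421738_at) was 1009.8, 938, 1023, 940.3 and 820.2 in the 5 ob/ob mice. In STZ mice the lowest, median and highest signals were 1025, 1222 and 1330.4, and in controls they were 1173, 1348 and 1558. All 5 ob/ob mice lay below every STZ mouse and every control, although the highest ob/ob signal, 1023.1, and the lowest STZ signal, 1025.1, were nearly level. STZ and control mice overlapped: 2 of 6 STZ mice lay below the lowest control, and 6 of 6 lay below the control mean. Group means were 946 ± 80.5 in ob/ob (SD, n = 5), 1194 ± 112 in STZ (n = 6) and 1348 ± 139 in control (n = 6), so ob/ob stood lowest, STZ between and control highest. In bulk tissue, fewer cells that express Gabra2 and less Gabra2 RNA per cell cannot be told apart. The controls were injected with vehicle, no injection is named for ob/ob mice, and no substrain or supplier is named. Genotype, injection and any difference of substrain or supplier therefore cannot be told apart in the ob/ob difference.

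On the log2 scale the ob/ob mean of Gabra2 differed from control by -0.51 ± 0.085 (SE from the limma fit over all 17 arrays), a ratio of 0.703, or 29.7% lower. This is the value that led to the choice of the gene: its adjusted p in limma over all tested probe sets was 0.0159, and 17 of the 13576 probe sets (0.125%) passed 0.05 in that comparison. The value moved past that threshold, to 0.0525, without control mouse 3, to 0.0601 without ob/ob mouse 5 and to 0.0543 when the 2 groups were fitted alone. The difference between ob/ob and STZ, which uses the same ob/ob arrays, was -0.33 ± 0.085, a ratio of 0.793. In that comparison 5 probe sets (0.0368%) passed, and Gabra2 was not among them (limma adjusted p = 0.532). Probe sets whose ob/ob signals lay wholly below the other group made up 1.07% of those tested against control and 0.273% against STZ. Those that lay wholly below both other groups, Gabra2 among them, numbered 5 (0.0368%). Nothing beyond a description is drawn from these counts.

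The STZ arrays did not enter the ob/ob difference that chose the gene, but the control arrays did. The STZ arrays did enter the estimate of spread behind its adjusted p, and the brightness filter. The difference of STZ from control was tested, and for Gabra2 that test is not free of the choice. Gabra2 in STZ differed by -0.17 ± 0.081 from control, with a 95% interval of -0.34 to -0.0046. It did not pass in limma (adjusted p = 0.591, unadjusted p = 0.0447), and 0 of the 4 genes passed in this comparison, beside 7 of all tested probe sets (0.0516%). At an unadjusted 0.05 the share of all tested probe sets was 8.24%, and of the 5 member probe sets Gabra2 alone was there. Both comparisons use the same 6 controls, so their shared direction in Gabra2 is not a second observation.

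**Figure D1:**
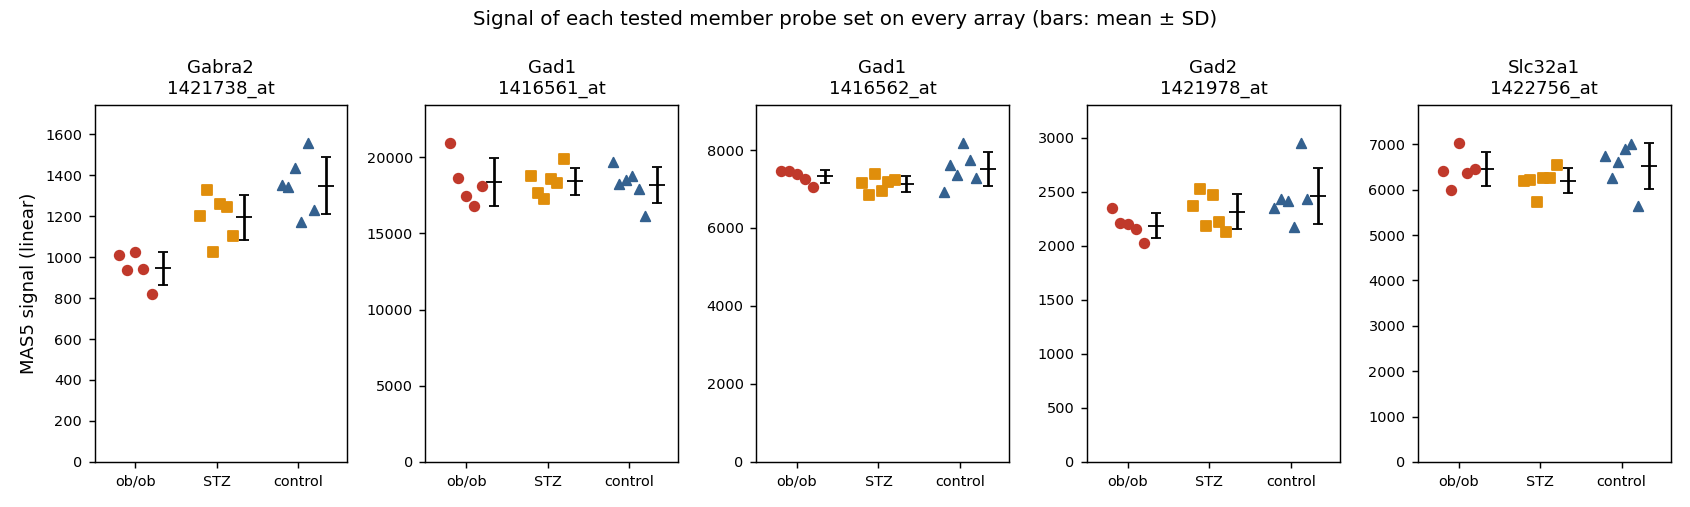
Signal of the 5 tested member probe sets (MAS5 signal units, linear axis) in each mouse, grouped as ob/ob, STZ and control. Points are single arrays and the bars give the group mean ± SD. All 5 ob/ob points for Gabra2, between 820.2 and 1023.1, sit below the STZ and control points, and the 3 groups overlap for the other probe sets.

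For the genes of GABA synthesis the groups overlapped, as they did for most tested probe sets. Those without overlap made up 1.91% in ob/ob against control and 0.567% in STZ against control. Gabra2 was chosen for its ob/ob value, so the synthesis genes are not set against it. Gad2 (1421978_at) had signals of 2348.5, 2215, 2199, 2152.5 and 2027 in ob/ob mice. The lowest, median and highest were 2127, 2297 and 2524 in STZ mice and 2177, 2423 and 2954 in controls. The 3 groups overlapped, with 2 of 5 ob/ob mice below the lowest control and 5 of 5 below the control mean. Gad2 stood at -0.16 ± 0.068 in ob/ob against control and -0.081 ± 0.068 in ob/ob against STZ, and both are given as descriptions. In STZ it differed from control by -0.083 ± 0.065, with an interval of -0.22 to 0.053 (limma adjusted p = 0.781). The highest control, mouse 5, had the highest Gad2 signal of all arrays. Without it the ob/ob difference was -0.11 and the STZ difference -0.029, so the value for STZ rests largely on that control.

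Gad1 was measured by a bright and a dimmer probe set. The bright one, 1416561_at, gave 20932, 18653, 17436, 16766 and 18081.5 in ob/ob mice. The lowest, median and highest were 17266, 18440 and 19861 in STZ mice and 16109, 18358 and 19654 in controls. Means were 18374 ± 1595, 18409 ± 907 and 18195 ± 1182 in ob/ob, STZ and control (SD), and all 3 groups covered the same range. The ob/ob difference from control was 0.013 ± 0.056 and the STZ difference was 0.018 ± 0.053, with an interval of -0.093 to 0.13 for STZ (limma adjusted p = 0.951).

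The dimmer Gad1 probe set, 1416562_at, varied less between mice. Its signals were 7470.0, 7454, 7385, 7269.5 and 7063 in ob/ob mice, against 6844.5, 7167 and 7382 as the lowest, median and highest in STZ mice and 6926, 7482 and 8181 in controls. The groups again overlapped. It stood at -0.035 ± 0.041 in ob/ob against control and 0.041 ± 0.041 in ob/ob against STZ. In STZ against control it was -0.076 ± 0.039, with an interval of -0.16 to 0.0054 (limma adjusted p = 0.634). The 2 Gad1 probe sets thus had opposite signs in both comparisons with control, and neither passed for STZ.

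Slc32a1, the vesicular transporter, likewise overlapped across the groups. Its tested probe set, 1422756_at, gave 6409, 5985, 7031, 6368 and 6459 in ob/ob mice. The lowest, median and highest were 5719.5, 6243 and 6549 in STZ mice and 5645, 6684 and 7013 in controls. Every group's range crossed the others'. The ob/ob difference from control was -0.016 ± 0.054 and that from STZ was 0.056 ± 0.054. STZ differed from control by -0.072 ± 0.052, with an interval of -0.18 to 0.037 (limma adjusted p = 0.764).

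The other genes of the GABA system were taken from a list of 69 genes outside the 4 members. Of these, 25 had no probe set with a single gene symbol and were not analysed here, 12 were under the brightness filter, and 32 were tested. In ob/ob against control, 0 of 32 passed an adjusted p of 0.05 in limma, beside 0.125% of all tested probe sets, and 1 had an unadjusted p under 0.05 (3.12%, beside 11.9% of all). In STZ against control 0 of 32 passed, beside 0.0516%, and 2 had an unadjusted p under 0.05 (6.25%, beside 8.24%). In ob/ob against STZ 0 of 32 passed, beside 0.0368%, and 1 had an unadjusted p under 0.05, beside 3.93%. The median differences were 0.0013, -0.0058 and -0.017 in these 3 comparisons, against medians of -0.00051, 0.00060 and -0.00017 over all tested probe sets. The groups overlapped for all 32 genes in each of the 3 comparisons, while probe sets without overlap made up 1.91%, 0.567% and 0.42% of all those tested. Among the 32 genes, 16 lay below 0 and 16 above in ob/ob against control, and 18 lay below and 14 above in STZ against control.

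Among the other GABA-A receptor subunits, 18 were listed and 5 were tested. The alpha subunit gene Gabra3 had -0.073 in ob/ob and 0.11 in STZ against control, and the beta subunit genes had -0.056 and -0.058 (Gabrb1) and -0.16 and -0.11 (Gabrb2). The gamma subunit gene Gabrg1 had -0.13 and -0.11, and the epsilon subunit gene Gabre had 0.067 and 0.0086. None passed in limma, with smallest adjusted p-values of 0.505 in ob/ob and 0.768 in STZ. Gabra6, Gabrg3, Gabrd, Gabrp, Gabrq, Gabrr1 and Gabrr2 were under the filter. The remaining listed subunits were not analysed here.

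Gabra2 lies in a cluster of GABA-A receptor genes, and its neighbours on the chromosome could be set beside it. In the gene order of RefSeq (GRCm38.p6), Gabrg1 is the next protein-coding gene on one side, and Gabra4 and Gabrb1 are on the other, beyond Cox7b2. Gabrg1 had signals of 3736 to 5932 in ob/ob mice, 3573 to 5873 in STZ mice and 4559.5 to 5956 in controls. Gabrb1 had 7202 to 8114 in ob/ob mice, 7223 to 8549.9 in STZ mice and 7378 to 8569 in controls. The 3 groups overlapped for both neighbours. Gnpda2, which encodes an enzyme of glucosamine metabolism and lies beyond Gabrg1, had -0.11 in ob/ob and -0.15 in STZ against control (limma adjusted p = 0.584 and 0.594). Whether the Gabra2 difference exceeded that of its neighbours was not tested.

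The 8 other GABA-system genes with the smallest p in ob/ob against control were Gabarapl2, Ubqln1, Slc12a2, Gabrb2, Abat, Dlx1, Lhx6 and Gabarapl1, and none passed in limma. Gabarapl2, a relative of the receptor-trafficking protein GABARAP, had the smallest adjusted p (0.385) with -0.092 ± 0.042. Its signals were 6824 to 7698 in ob/ob mice and 7542 to 8190 in controls. Ubqln1, whose product binds GABA-A receptor subunits and slows their degradation, had -0.089 ± 0.046. Abat, the transaminase that starts GABA breakdown, had -0.11 ± 0.062, and Gabarapl1 had -0.076 ± 0.053. The chloride importer Slc12a2 had 0.10 ± 0.057. Among regulators of GABA neuron identity, Dlx1 had -0.15 ± 0.092 and Lhx6 0.21 ± 0.14.

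In STZ against control the 8 genes were Slc38a3, Slc38a2, Ubqln1, Glul, Slc38a1, Plcl2, Nlgn2 and Gphn, and again none passed. Slc38a1, Slc38a2, Slc38a3 and Glul belong to the supply of glutamine and glutamate, from which GABA is made. The glutamine transporter Slc38a3 had -0.17 ± 0.061 (limma adjusted p = 0.456), with 1956 to 2357 in STZ mice and 2161 to 2670 in controls. The neuronal glutamine transporters Slc38a1 and Slc38a2 had 0.16 ± 0.087 and 0.16 ± 0.075, and glutamine synthetase, Glul, had 0.077 ± 0.041. Ubqln1 had -0.085 ± 0.043. The scaffold gene Gphn and the inhibitory synapse adhesion gene Nlgn2 each had -0.075 ± 0.047, and Plcl2, whose product takes part in receptor trafficking, had 0.15 ± 0.085. Of the plasma membrane GABA transporters, Slc6a12 and Slc6a13 were under the filter, and the others listed were not analysed here.

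**Figure D2:**
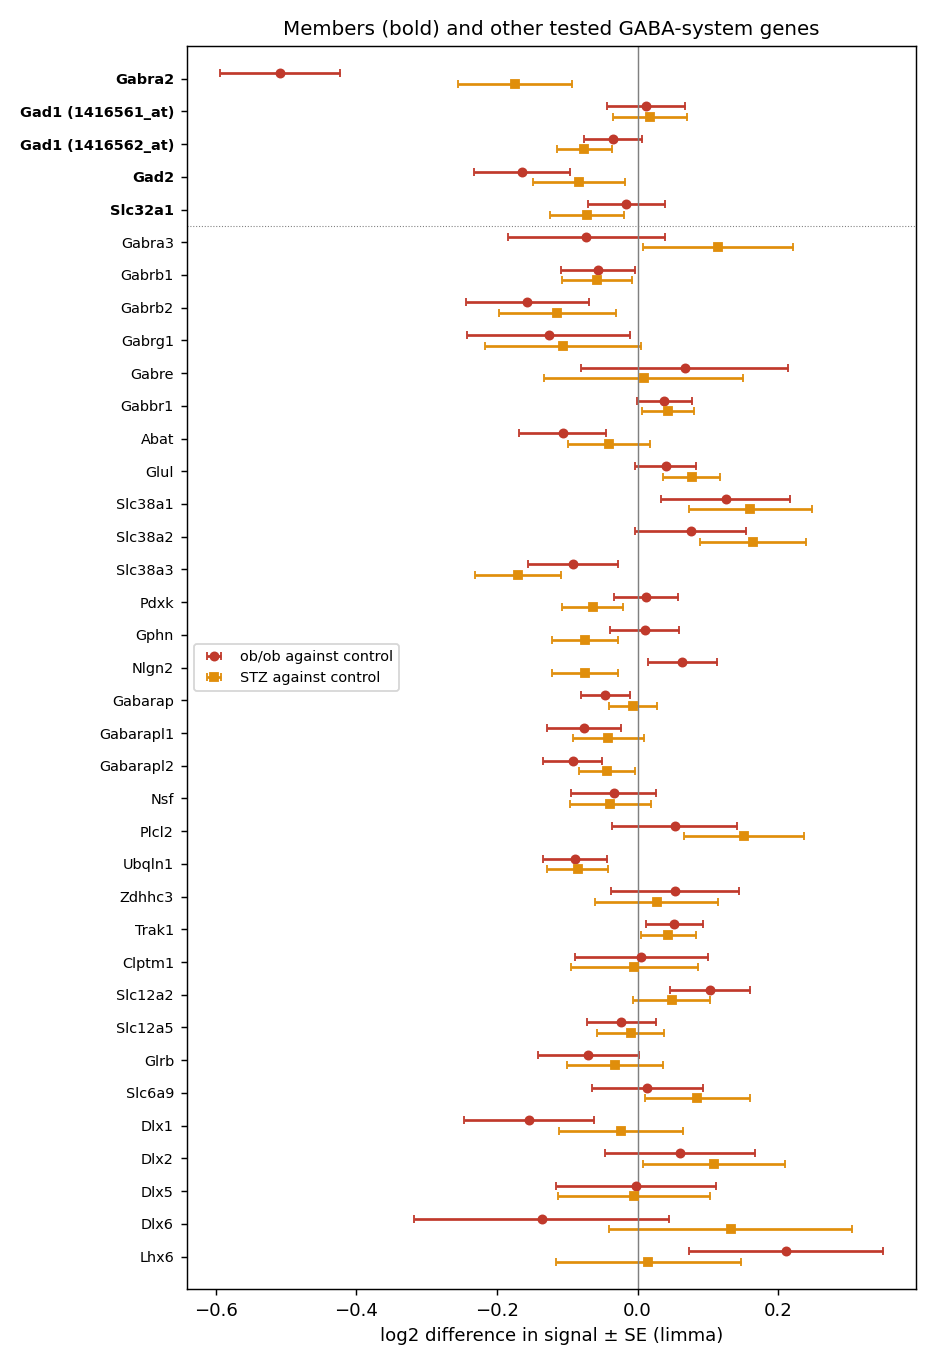
Difference in log2 signal from control for ob/ob (circles) and STZ (squares), with bars of ± 1 SE from the limma fit, for the members (bold, above the dotted line) and the 32 other tested GABA-system genes. Gabra2 in ob/ob, at -0.51, lies farthest from 0 on the axis. It was chosen for that value, so its place among the genes is not a result. The other 32 genes lie between -0.16 and 0.21 in ob/ob and between -0.17 and 0.16 in STZ.

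Markers of cells and regions were set beside the ob/ob difference. Markers of neighbouring regions (striatum, cortex and thalamus) comprised 24 genes, of which 11 were tested. Their mean log2 level was 10.95 in ob/ob and 10.64 in control, a difference of 0.32 with 11 of 11 genes higher (exact two-sided permutation p = 0.013, adjusted p = 0.169 over 39 such tests). The summed signals of this list were 23839 to 27765 in ob/ob, 19507 to 24291.5 in STZ and 17928 to 24529 in control. The defining cortical genes Neurod6, Tbr1 and Neurod2 were under the brightness filter, as were Rtn4r and the thalamic markers Lef1 and Tnnt1. STZ differed from control by 0.16 (9 of 11 genes higher, exact p = 0.11, adjusted p = 0.287). With the list level as a covariate in limma, the Gabra2 difference in ob/ob was -0.55 ± 0.12 (adjusted p = 0.292) and did not pass. The list level was itself higher in ob/ob, so its part and that of the group cannot be told apart in this fit. In that fit 0 probe sets passed in ob/ob against control and 993 had an unadjusted p under 0.05, beside 17 and 1611 without the covariate.

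General neuron markers, 10 of 10 tested, differed by -0.021 between ob/ob and control (exact permutation p = 0.519, adjusted p = 0.614). Their summed signals were 102265 to 105026 in ob/ob, 101766 to 108858.0 in STZ and 101952 to 117096 in control. Markers of GABA neuron classes, 10 of 11 tested, stood 0.089 higher in ob/ob than in control, with 8 of 10 genes higher (exact permutation p = 0.0303, adjusted p = 0.190). Their sums were 49936 to 54082 in ob/ob, 48312 to 52157.5 in STZ and 45563 to 49868 in control. Of 3 glutamate neuron markers 1 was tested, at -0.082 in ob/ob against control (exact permutation p = 0.0433, adjusted p = 0.190). Whether the number of GABA neurons differed, or how far the GABA neuron class list follows tissue of neighbouring regions, was not tested. Hypothalamus markers stood at -0.22 in ob/ob against control, with 2 of 8 genes higher (exact permutation p = 0.00649, adjusted p = 0.169). In limma 1 of the 8 passed, beside 0.125% of all tested probe sets. The 8 were Pomc, Npy, Cartpt, Hcrt, Avp, Oxt, Trh and Sim1. Less hypothalamic tissue and less RNA of these genes per cell cannot be told apart. Sums of this list were 35839 to 42478 in ob/ob, 36470.5 to 53696 in STZ and 38253 to 47206 in control. Microglia markers stood at -0.15 (adjusted p = 0.186, exact permutation) and endothelial and pericyte markers at -0.12 (adjusted p = 0.169, exact permutation) in ob/ob against control. With the general neuron level as a covariate, the Gabra2 difference was -0.52 in ob/ob against control, -0.35 in ob/ob against STZ and -0.18 in STZ against control. The part of any marker list in the Gabra2 difference was not tested. The ratios of 3' to 5' control probe sets for Gapdh and Actb, a sign of RNA integrity, gave exact permutation p-values of 0.359 to 0.868 between groups.

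Variation between mice of the same group gave a measure that the choice of genes had not used. For each of the 6 member pairs, log2 signals less the group mean were correlated over the 17 arrays, with labels permuted within groups 100000 times and p-values adjusted over the 6 pairs. Gabra2 and Gad2 varied together: r was 0.811 (permutation p = 3e-04, adjusted p = 0.0018) and Spearman's rho 0.775 (permutation p = 0.00088, adjusted p = 0.00528). Mice with more Gabra2 signal than their group's mean tended to have more Gad2 signal as well. Without the 2 arrays farthest from the median of Gabra2, r was 0.812 (adjusted p = 0.00942, permutation, n = 15) and rho was 0.607 (adjusted p = 0.175, permutation), so the rank relation did not pass without them. Leaving out each array in turn gave r from 0.770 to 0.847. Control mouse 5 had the highest signal of both genes over all arrays and was not 1 of those 2 arrays. Without control mouse 5, r was 0.774 and rho 0.679. Within STZ mice alone r was 0.806 and rho 0.886, and within controls alone r was 0.831 and rho 0.543 (n = 6 each). The exact permutation p-values for r in these groups were 0.0583 and 0.0431, both 0.233 after adjustment over 12 such tests. No value is given for the 5 ob/ob mice alone, since correlations were computed only over at least 6 arrays.

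The relation was recomputed with each of 5 array measures removed in turn. With the neighbouring-region level removed r was 0.807, with the general neuron level removed 0.802, with the Gapdh 3' to 5' ratio removed 0.817 and with the Actb ratio removed 0.831. With the first principal component of within-group deviations removed, which held 20.2% of that variance, r was 0.827. With Gad2 as a covariate, the Gabra2 difference was -0.35 ± 0.076 in ob/ob against control, -0.25 ± 0.067 in ob/ob against STZ and -0.092 ± 0.065 in STZ against control. Gad2 itself stood at -0.16 in ob/ob against control and was taken as a covariate after seeing the data. Its part and that of the group cannot be told apart in this fit.

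**Figure D3:**
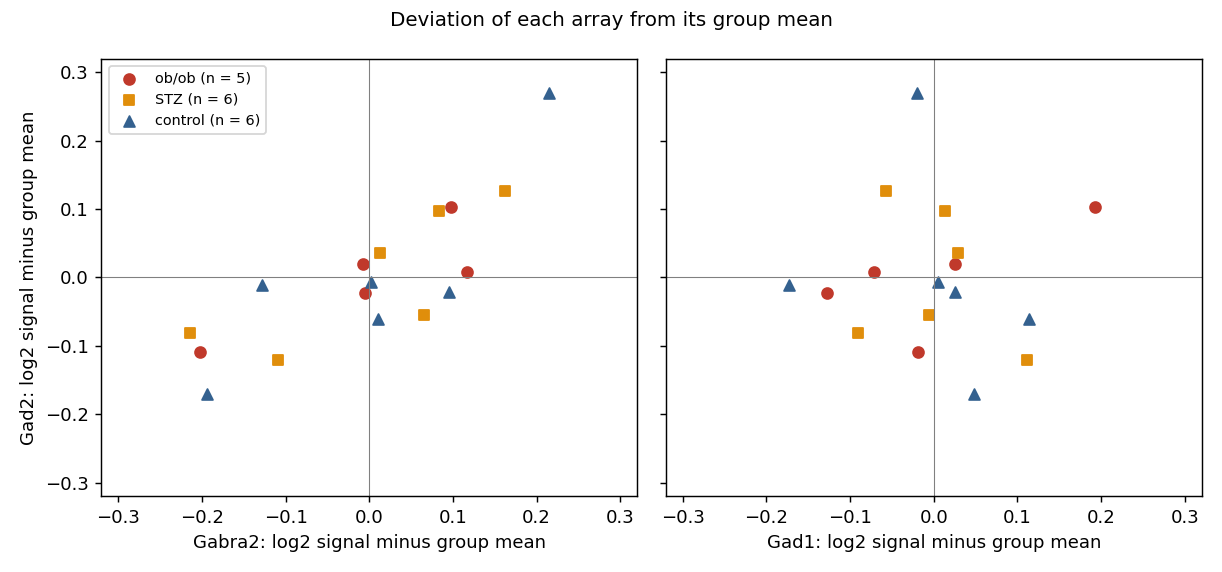
Deviation of log2 Gad2 signal from its group mean (vertical axes) against that of Gabra2 (left panel) and Gad1 (right panel) in 17 mice, with ob/ob as circles, STZ as squares and control as triangles. Points rise along the diagonal for Gabra2 (r = 0.811) and show no slope for Gad1 (r = -0.031).

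None of the other 5 pairs passed. Gabra2 had r = 0.142 with Gad1 (adjusted permutation p = 0.905, rho = 0.059) and r = 0.394 with Slc32a1 (adjusted permutation p = 0.31). Gad1 and Slc32a1 had r = 0.422 (adjusted permutation p = 0.31), but 0.115 without control mouse 6 and 0.146 with the dimmer Gad1 probe set. The 2 decarboxylase genes, Gad1 and Gad2, had r = -0.031 (adjusted permutation p = 0.905, rho = -0.091), and Gad2 and Slc32a1 had r = 0.090 (adjusted permutation p = 0.905). Thus the correlated pair was a receptor subunit and a synthetic enzyme, and the pair of enzymes did not show a relation at this number of arrays. Gad1 also moved with array measures: its within-group r was -0.637 with the Gapdh 3' to 5' ratio and -0.634 with the first principal component, against 0.181 and -0.271 for Gabra2 and 0.389 and -0.063 for Gad2. With that ratio removed, the r of Gad1 and Gad2 was 0.305.

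The pair was set against all tested probe sets in the same 17 arrays, as a description. Of the 13575 others, 3 had a higher r with Gabra2 than Gad2 did, and 5 had a higher r with Gad2 than Gabra2 did. The median r was 0.0096 for Gabra2 and 0.011 for Gad2, and the 95th percentiles were 0.496 and 0.474. For Gad1, 7250 probe sets had a higher r than Gad2.

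**Figure D4:**
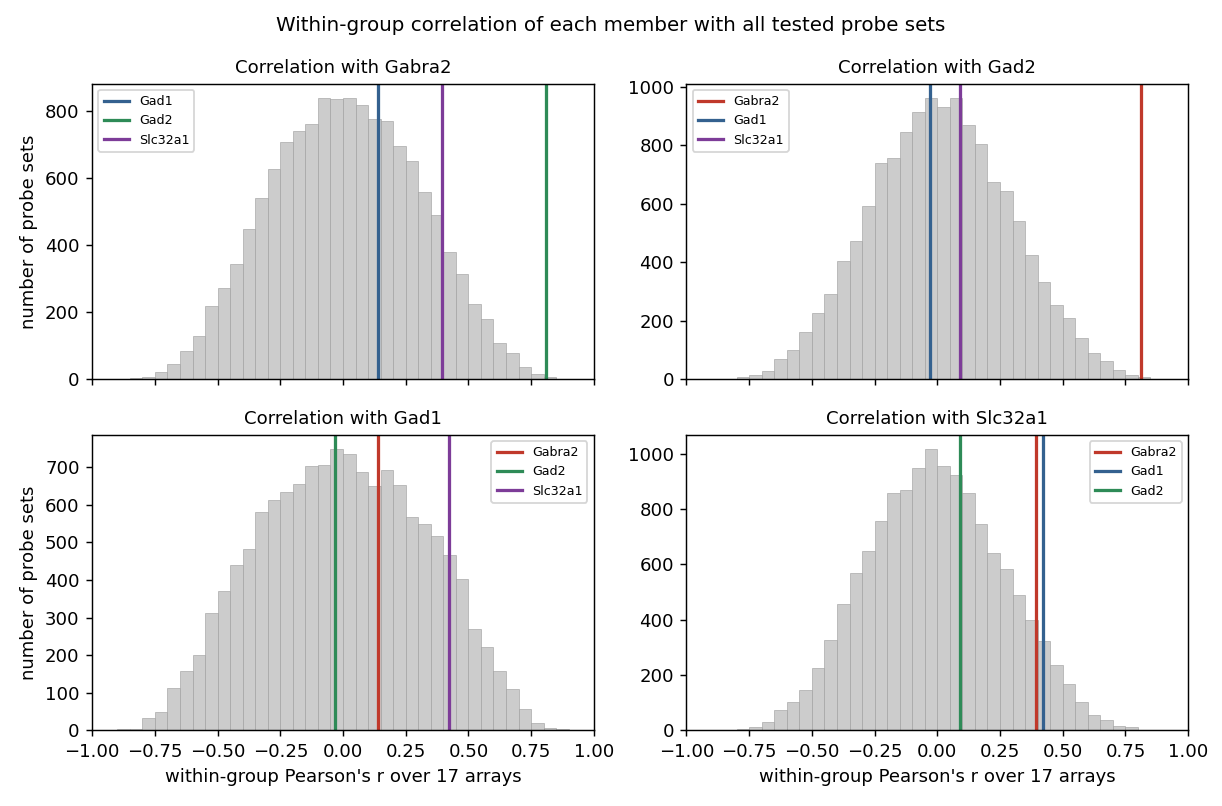
Number of tested probe sets (vertical axes) by their within-group Pearson's r with each member (horizontal axes) over 17 arrays, 1 panel per member, with vertical lines at the other members. Gad2 in the Gabra2 panel and Gabra2 in the Gad2 panel, both at 0.811, lie in the far right tail. The other lines, from -0.031 to 0.422, lie below the 95th percentile of their panel. In the Slc32a1 panel, Gad1 at 0.422 is close to that percentile, 0.439.

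By the same measure the 5 genes whose patterns were most like each member's were named, leaving the members out and taking only each gene's brightest probe set with a single symbol, so a probe set counted above need not appear here. For Gabra2 they were Ccnh (0.827), a cyclin of the transcription factor TFIIH, Ro60 (0.824), an RNA-binding protein, Mboat2 (0.806), Pde1a (0.785), a cyclic nucleotide phosphodiesterase, and Epm2aip1 (0.784). For Gad2 they were Lrrtm2 (0.806), a postsynaptic adhesion protein, Zzz3 (0.783), Zfp955b (0.780), the microglial chemokine receptor Cx3cr1 (0.765) and Mtdh (0.741). For Gad1 they were Snap91 (0.891), a clathrin assembly protein of synapses, Sf3a2 (0.872), a splicing factor, Phf8 (0.870), Mapre2 (0.836) and Zkscan6 (0.820). For Slc32a1 they were Cyth1 (0.790), Rab3gap2 (0.774), Pgam1 (0.758), Tpte (0.754) and Trim59 (0.753). No gene was named for more than 1 member, and each list is the top of a ranking over the 7954 genes tested.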

How the data were processed

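Hypothalamus RNA of 17 mice was measured on Affymetrix arrays. The authors deposited 1 MAS5 signal per probe set and array, in the unit intensity on a linear scale; MAS5 is named per the submitters' processing notes, and its version, scaling target and detection calls are not given in the sources used here. The unit and the common trimmed mean were read from the deposited values. No depth exists for arrays, and their number limits the precision. Groups came from the array titles; nothing beyond separate hypothalami says how mice were housed or processed, so p-values measure the spread between these arrays.

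The 64 control probe sets were left out, as were dim ones (mean log2 signal over all arrays under the 40th percentile). Gene names came from the platform annotation, in which 20380 probe sets had 1 symbol, 691 several and 1555 none; 20351 matched RefSeq by Entrez identifier. Each gene's brightest probe set stood for it (an _x_at set only where there was no other). Differences came from limma 3.58.1 in R 4.3.3, in which lmFit fitted the 3 group means to all arrays and eBayes used a trend. Benjamini-Hochberg adjustment was over 13576 probe sets. The fit was also run on simulated data with independent noise for each probe set, which leaves out variation shared between probe sets. Marker lists were compared by exact permutation of arrays. The members and gene lists were chosen with earlier results of these data known. Genes named were all members, the 8 GABA-system genes with the smallest p in each comparison with control, the receptor subunits, transporters and breakdown enzymes, and the 5 genes most correlated with each member; Gnpda2 was named for its position. Replicate numbers did not pair samples: deviations of arrays with the same number correlated at -0.165 to 0.109 over 16 pairs. Alternatives comprised other filters, normalizations, offsets, weights, covariates, probe set choices and leaving out each array.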

Additional observations from a re-analysis of the deposited data

Results flagged for a closer look

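In 2 of the 63 sets of 4 to 10 arrays examined, 1 array stood apart from its group by Dixon's 95% criterion, where chance alone gives about 3.2. The Gad2 signal of control mouse 5 was 2953.7, and the other 5 controls lay between 2177.3 and 2438.6. The Plcl2 signal of control mouse 2 was 1478, and the other 5 controls lay between 1923 and 2047.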

How the results depend on the processing

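The Gabra2 difference between ob/ob and control kept its sign in all 30 alternatives. It ran from -0.55 to -0.46, apart from -0.346 with Gad2 as a covariate, an alternative chosen after seeing the data. Its adjusted p, the value that chose the gene, was 0.292 with the neighbouring-region covariate, 0.0543 with only those 2 groups and 0.0103 to 0.0601 when arrays were left out. The Gabra2 difference between STZ and control stayed below 0 and did not pass in any (leave-one-out -0.21 to -0.13, adjusted p 0.456 to 0.833). With the replicate block, which the pairing check did not bear out, Gabra2 in ob/ob was -0.53 and no member's call changed. Averaging all probe sets of a gene turned the STZ difference of Gad1 to -0.0288 and that of Slc32a1 to 0.0974, and gave -0.255 and -0.352 for Slc32a1 in ob/ob against control and STZ; the dim Slc32a1 probe set enters that mean. Gad1 in STZ ran from -0.0166 to 0.0408 when arrays were left out. Slc32a1 in ob/ob was -0.107 with the neighbouring-region level as a covariate; the cause was not tested. The r of Gabra2 and Gad1 was -0.0118 without the 2 arrays farthest from the median, -0.0405 without the first principal component, -0.201 with the dimmer Gad1 probe set and -0.00102 to 0.239 when arrays were left out. That of Gad1 and Gad2 was 0.131 after quantile normalization, 0.305 without the Gapdh ratio and -0.249 to 0.0824 when arrays were left out. That of Gad2 and Slc32a1 was -0.0564 as rho, -0.0785 without the 2 arrays, -0.00302 without the neighbouring-region level and -0.222 to 0.240 when arrays were left out. That of Gad1 and Slc32a1 was 0.193 without the 2 arrays, 0.146 with the dimmer Gad1 probe set and 0.115 to 0.579 when arrays were left out. Covariates removed from correlations were chosen after seeing the data. No other GABA-system gene passed in any of 28 alternatives per comparison. Calls over all probe sets ranged more widely: 17 in ob/ob against control became 0 with the neighbouring-region covariate, 29 after quantile normalization, 38 with array weights, 40 with the general neuron covariate, 6 with only those 2 groups and 8 to 43 when arrays were left out; 7 in STZ against control became 0 to 18 and 5 in ob/ob against STZ 1 to 9 when arrays were left out. The arrays' brightness limits what can be said of the 12 dim listed genes.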
